A study of Saccharomyces cerevisiae with 22 samples.

Results

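Translation efficiency, the number of ribosome footprints per unit of mRNA, was measured gene by gene in budding yeast (Saccharomyces cerevisiae) in log phase on glucose. The libraries were chosen by their labels: all 4 footprint libraries and all 4 polyA RNA libraries from cultures with glucose, 8 of the 22 samples of the series. Footprints, the mRNA pieces that ribosomes shield from RNase I, came from BY4741 and EY0690 cells, 2 libraries from each strain. PolyA RNA, taken with oligo-dT beads and broken by alkali, came from the same strains, again 2 libraries from each. BY4741 is a laboratory strain of the S288C background with deletions at HIS3, LEU2, MET15 and URA3, and EY0690 is described by the submitters as a w303 strain. The growth text names BY4741 for every sample, so the strain was taken from the strain label. Cells were taken in log phase, at an OD600 between 0.3 and 0.4, from synthetic complete medium (glucose present) kept at 30 °C. Before harvest they were given 100 ug/ml of cycloheximide, which stops ribosomes on the mRNA, for 1 min. Of 5381 genes in the deposited table, 4992 had a mean of at least 10 CPM (counts scaled to a common library size) over the 8 libraries and were tested.

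A ribosome that has started on an mRNA usually finishes it, so footprints per mRNA mostly follow how often new ribosomes start. In yeast the small subunit binds at the cap and scans to the first suitable ATG. An ATG upstream of the coding sequence can capture it, which is how the GCN4 leader holds back translation in well-fed cells. Growing cells spend much of this capacity on ribosomes, on enzymes that ferment glucose and on the wall and membrane of the bud.

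Depth differed widely. Footprint totals over all genes were 4085996 and 8110916 for BY4741, but 880315 and 698310 for EY0690. PolyA totals were 5742606 and 7003745 for BY4741, against 1974938 and 1146371 for EY0690. The second BY4741 footprint library stood apart: the log2 ratio of footprints to polyA RNA had an SD across genes of 0.617 there, against 1.21 in the first BY4741 pair and 1.11 and 1.03 in the EY0690 pairs. HIS3, partly deleted in BY4741, does not check the strain labels, and LEU2, URA3 and MET17 (MET15) were not analysed here. No label says that libraries of 1 group came from separate cultures, so p-values measure only the spread between these samples.

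Translation efficiency covered a wide range. The genes at the 5th and 95th percentiles differed 6.91-fold, and the extremes were -2.77 and 3.66 on the log2 scale. The scale is relative, with the median gene at -0.07. By edgeR's quasi-likelihood test with strain as a covariate, 1145 of 4992 genes (22.9%) had more footprints per polyA RNA than the centre of the scale and 1178 (23.6%) had fewer, at an adjusted p under 0.05. At least 2-fold differences were seen in 590 genes above and 508 below. The ranking was shared between pairs of footprint and polyA library, which have no library in common: Spearman's rank correlation across the 4992 genes was 0.874 between the BY4741 pairs, 0.813 between the EY0690 pairs and 0.598 to 0.786 between strains. Genes are not independent replicates, so these values are a description.

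The position of the centre depends on the scaling. With library size alone the median gene shifted by -0.54, and 472 genes were called higher and 2444 lower. Without the first BY4741 footprint library 1160 genes were higher and 766 lower, and BY4741 alone gave 168 higher and no lower call by edgeR, with 992 higher and 613 lower at an unadjusted p under 0.05.

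The 12 genes of highest translation efficiency that met the naming rule held 4 genes of the actin patches that drive endocytosis: LAS17 (the yeast WASP, an activator of the Arp2/3 complex), VRP1 (verprolin, its partner), PAN1 (an endocytic scaffold) and ABP1 (an actin-binding protein of the patch). Another 2, SEC31 and SEC16, build the COPII coat of vesicles that leave the endoplasmic reticulum. DED1 is a helicase that helps the small subunit scan, SRO9 an RNA-binding protein with a La motif, PDC1 the main pyruvate decarboxylase, CAR2 ornithine transaminase and SIM1 a wall protein of the SUN family. TVS1 (YCR061W) completed the set. None of the 12 had an ATG in the 50 bases before its start codon, against 871 of 4992 genes (17.4%). Whether so small a set differs from that share was not tested. In the 100 bases before the start codon LAS17, VRP1, CAR2, DED1 and SRO9 had at least 1 ATG, as did 49.1% of all genes.

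In 5 of these 12 genes the coding sequence holds a run of at least 5 proline codons (CCN), against 38 of 4992 genes (0.761%). The runs of all 5 follow, in lower case, read from the coding strand of the RefSeq R64 genome, because they are the sequence feature that most sets the top of the ranking apart to the eye; they were looked for after the ranking was seen.
VRP1, 9 codons, chrXII:803889-803915, minus strand: ccaccacctcctcctcccccaccacct
LAS17, 6 codons, chrXV:676491-676508, plus strand: cctccccctcctccgcca
PAN1, 5 codons, chrIX:365697-365711, minus strand: cctccacccccacct
SEC16, 5 codons, chrXVI:393298-393312, plus strand: ccaccacctcctcca
ABP1, 5 codons, chrIII:266619-266633, plus strand: cctcctccgcctcca

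All values below are TMM-normalised CPM, in the order first and second BY4741 library, first and second EY0690 library. LAS17 (YOR181W, chromosome XV, 675939 to 677840, 1 coding exon) had 126.2, 37.3, 351.1 and 290.4 CPM of footprints, against 5.3, 6.6, 19.2 and 35.7 CPM of polyA RNA. Every footprint library lay above every polyA library, and the log2 ratio was 3.66 ± 0.35 (SE, edgeR adjusted p = 5.45e-05). VRP1 had 227.7, 77.9, 746.2 and 472.4 CPM of footprints, against 7.5, 10.8, 82.0 and 56.6 CPM of polyA RNA, a log2 ratio of 3.57 ± 0.35 (SE, edgeR adjusted p = 5.45e-05). The 12 were chosen for 1 sign in all 4 pairs, so a lack of overlap follows in part from the choice. VRP1 was the 1 gene of the 12 whose groups overlapped, since the second BY4741 footprint library was below the first EY0690 polyA library. Even so, each strain's footprints were above its own polyA RNA. In LAS17 and VRP1 alike, EY0690 had more polyA RNA and more footprints than BY4741. RNA not selected for polyA, described with the Length results, went the other way. LAS17 had 77.0 CPM in BY4741 total RNA and 18.5 CPM in the pooled EY0690 column, and VRP1 163.3 and 76.1 CPM.

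DED1 had 2598, 928.1, 1203 and 1108 CPM of footprints, against 93.2, 145.6, 212.0 and 135.4 CPM of polyA RNA (log2 ratio 3.31 ± 0.37, edgeR adjusted p = 6.99e-05). PDC1 carried far more of both: 38842, 12711, 37363 and 39889 CPM of footprints, against 2196, 2079, 6603 and 5932 CPM of polyA RNA (3.11 ± 0.35, edgeR adjusted p = 7.47e-05). The second BY4741 library was the low one among the footprints of PDC1 and of DED1, and still above all 4 polyA libraries. CAR2 was lower in level, with 155.7, 94.5, 121.5 and 145.2 CPM of footprints against 8.1, 9.4, 19.6 and 16.2 CPM of polyA RNA (3.40 ± 0.26, edgeR adjusted p = 1.24e-05).

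The other members stood in the same way. TVS1 reached 3.33 ± 0.25, PAN1 3.12 ± 0.34, SRO9 3.12 ± 0.36, SEC31 3.10 ± 0.33, SEC16 3.06 ± 0.33, SIM1 3.01 ± 0.30 and ABP1 2.996 ± 0.380 on the log2 scale (SE, edgeR adjusted p between 1.24e-05 and 0.000109). Without the second BY4741 footprint library the 12 genes ran from 3.13 to 3.93 and all 12 stayed called.

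**Figure D1:**
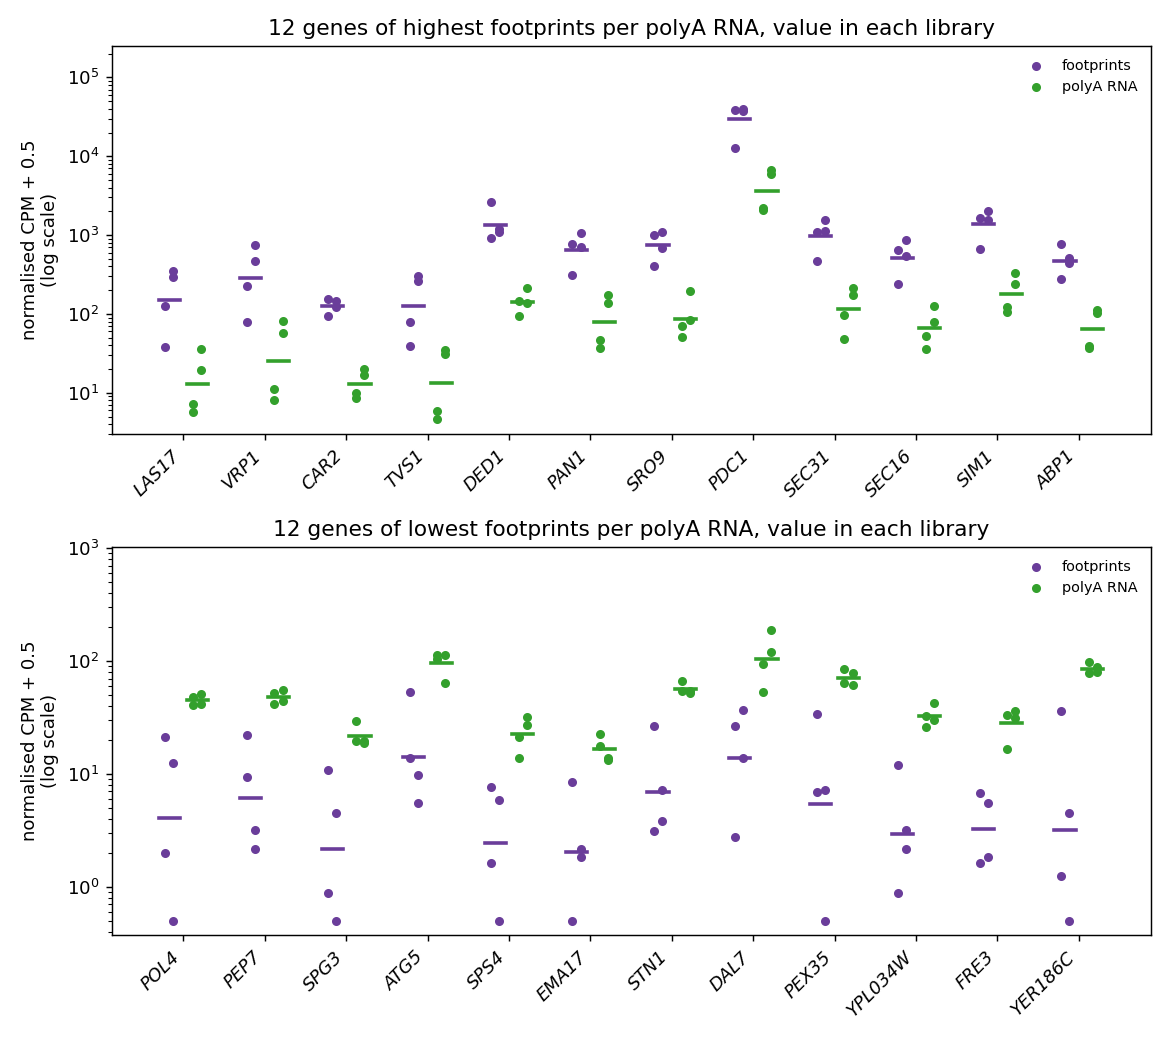
Normalised CPM plus 0.5 on a log axis for the 12 named genes of highest (top) and the 12 of lowest (bottom) translation efficiency, with footprints left of polyA RNA. Points are libraries, BY4741 left and EY0690 right within each group, and bars are geometric means; footprints lie above polyA RNA in the top panel, with an overlap for VRP1, and below it in all 12 genes of the bottom panel.

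The 12 genes at the bottom have varied roles, several of them in starvation or sporulation. FRE3 is a ferric reductase for iron bound to siderophores, DAL7 a malate synthase of allantoin breakdown, SPS4 a sporulation gene and SPG3 a gene needed in stationary phase. PEX35 acts in peroxisome number, ATG5 in autophagosome formation, PEP7 in vesicle fusion at the endosome, STN1 in capping of telomeres, and POL4 is a DNA polymerase of repair. YER186C, YPL034W and EMA17 (YIL029C) were the other 3. Of the 12, 11 had an ATG in the 50 bases before the start codon; SPS4 was the exception. In 8 of the 12, 7 of them with an upstream ATG, footprints averaged under 10 CPM, so these genes reached the CPM minimum only through polyA RNA, where they were high; the 11 of 12 is therefore a description. Over all genes tested, 125 were in that position, and 91 of them were called lower.

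The upstream ATG nearest to the start codon is shown for the 11 genes, in 30 bases from 3 before it, on the coding strand of the RefSeq R64 genome. Capitals mark that ATG and, where it falls inside the window, the first stop codon in its frame. The ATG lay 8 to 47 bases before the start codon. In 6 genes (YPL034W, PEX35, DAL7, EMA17, ATG5 and SPG3) a stop closes its frame before the coding sequence, and in the other 5 its frame runs past the start codon and differs from the coding frame.
YER186C, chrV:562624-562653, minus strand: tatATGatcgagttctgtaaacagtatcat
FRE3, chrXV:1055499-1055528, plus strand: ctgATGaacgttctcaattcaaaaattata
YPL034W, chrXVI:486696-486725, plus strand: tctATGTAAgataggaatgaccactcgaaa
PEX35, chrVII:834481-834510, minus strand: ctaATGagagtatacacttgcTAActatat
DAL7, chrIX:414686-414715, minus strand: agtATGtgtcataggcacggtaaagagcac
STN1, chrIV:610425-610454, plus strand: ataATGggttggagccatggaTAAgtacgg
EMA17, chrIX:301275-301304, minus strand: aggATGctgtattaccgccgtTAGccatca
ATG5, chrXVI:271299-271328, plus strand: atgATGTAAgtatgaatgacattaaacaat
SPG3, chrIV:1456700-1456729, minus strand: tgtATGaagaatTAGttcacgaattatttc
PEP7, chrIV:1114048-1114077, minus strand: ctcATGgtttttaaagggatatcaccgaat
POL4, chrIII:140932-140961, minus strand: aacATGcgacctgttagacaaatcgcacat

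The 30 bases around the start codon are shown for 3 of the highest genes and hold no ATG (in capitals) other than the start codon itself. This window is placed otherwise than those above, so the sequences are not a contrast. In the same window only YPL034W, STN1 and ATG5 of the named lowest genes hold another ATG, and the rest of those genes hold none. DED1 has 1 ATG in the 100 bases before its start codon.
PDC1, chrXII:234076-234105, minus strand: aataacacagtcaaatcaatcaaaATGtct
DED1, chrXV:722887-722916, plus strand: acaacaagaaaagcatttcatattATGgct
ABP1, chrIII:265044-265073, plus strand: acacgcacacacctatcaatcacaATGgct

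FRE3 (YOR381W) had 1.1, 6.3, 1.3 and 5.0 CPM of footprints, against 16.1, 32.5, 30.5 and 35.7 CPM of polyA RNA, a log2 ratio of -2.74 ± 0.46 (SE, edgeR adjusted p = 0.000724). STN1 had 2.6, 26.3, 6.7 and 3.3 CPM of footprints, against 53.3, 66.5, 54.1 and 51.2 CPM of polyA RNA (-2.30 ± 0.48, edgeR adjusted p = 0.00246). ATG5 had 13.4, 53.2, 9.3 and 5.0 CPM of footprints, against 104.8, 112.4, 111.7 and 63.3 CPM of polyA RNA (-2.22 ± 0.43, edgeR adjusted p = 0.00162). In these 3 genes, as in all 12, every footprint library was below every polyA library. The 12 were chosen for 1 sign in all 4 pairs, so this separation follows in part from the choice. Footprints of FRE3 and STN1 averaged 3.44 and 9.73 CPM, so both genes reached the CPM minimum only through polyA RNA, where they were high. In FRE3, STN1 and ATG5 the second BY4741 footprint library was the highest of the 4.

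YER186C showed how much that library weighs: it had 35.9 CPM (280 counts) there, but 0.7, 4.0 and 0 CPM in the first BY4741 and the EY0690 footprint libraries, against 77.5, 97.8, 87.2 and 78.8 CPM of polyA RNA. The 0 in the second EY0690 library allows up to 5.01 CPM (3 counts). Its log2 ratio was -2.77 ± 0.66 (SE, edgeR adjusted p = 0.00493), and -6.03 without the second BY4741 library. All 12 genes moved by over 1.5-fold without that library, to between -6.03 and -2.97, and all stayed called. Without the first BY4741 footprint library YER186C, YPL034W, EMA17 and SPG3 moved by over 1.5-fold the other way, to -2.14, -1.88, -1.56 and -1.54.

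Among the gene lists, those of the translation machinery differed in footprints per polyA RNA. Their order was another over unselected RNA, as given with the lists at the end of these results. The shares over all genes to set beside the counts were 22.9% higher and 23.6% lower. Of the 20 elongation and termination factors tested, 16 were higher and 4 did not pass, and the median log2 ratio was 1.04, against -0.07 over all genes. YEF3, the elongation factor particular to fungi, had 25820, 14230, 10424 and 10644 CPM of footprints, against 4378, 4842, 4255 and 3759 CPM of polyA RNA (1.76 ± 0.26, edgeR adjusted p = 0.000304), and TEF4, a subunit of the exchange factor of elongation, stood at 1.49 ± 0.23. Of the 22 aminoacyl-tRNA synthetases, which charge tRNAs, 14 were higher and 8 did not pass (median 0.88). DPS1, the aspartyl enzyme, was the highest at 1.87 ± 0.27, and THS1, the threonyl enzyme, the lowest at -0.13 ± 0.25. Initiation factors spread more widely (median 0.56): 16 of 32 were higher and 1 was lower, from DED1 down to GCN3, the alpha subunit of eIF2B, at -0.64 ± 0.19 (edgeR adjusted p = 0.0149), a call that ended without either EY0690 footprint library (adjusted p = 0.0773 and 0.0577).

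Ribosomal proteins themselves lay close to the middle over polyA RNA. Of 79 large-subunit genes 21 were higher and 2 lower (median 0.25), and of 57 small-subunit genes 13 were higher and 5 lower (median 0.06), near the share over all genes for higher calls and below it for lower ones. In 36 and 22 of them more than 20% of the 28-base words are shared with a paralog or the gene overlaps another, so their separate values are uncertain. RPP0, the stalk protein, was the highest of the large subunit, with 8062, 4772, 5372 and 5623 CPM of footprints against 2474, 1799, 2184 and 2662 CPM of polyA RNA (1.38 ± 0.24, edgeR adjusted p = 0.000832). RPL22B was the lowest at -1.20 ± 0.25. In the small subunit RPS15 reached 1.35 ± 0.29, while RPS12 had 3819, 4467, 1649 and 2225 CPM of footprints, against 6112, 6174, 6867 and 4526 CPM of polyA RNA (-1.06 ± 0.26, edgeR adjusted p = 0.0056). Both subunits' medians were below 0 in the first EY0690 pair (-0.10 and -0.09) and above it in the other 3 pairs.

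Mitochondrial ribosomal proteins, made in the cytosol and imported, were low by comparison: 3 of 64 were higher and 18 lower (28.1%, against 23.6% over all genes), with a median of -0.23. MRPL15, which has an upstream ATG, had 29.5, 57.9, 34.7 and 60.1 CPM of footprints, against 85.1, 98.8, 177.5 and 122.6 CPM of polyA RNA (-1.32 ± 0.26, edgeR adjusted p = 0.00166). Ribosome biogenesis factors ran from NOP1, the methyltransferase of box C/D snoRNPs, at 1.74 ± 0.35 to UTP9, of the small-subunit processome, at -1.23 ± 0.25. Their counts, 14 of 71 higher and 6 lower, were below the shares over all genes in both directions, with a median of 0.14.

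Over polyA RNA the highest list was that of the cell wall. Of its 41 genes tested, 36 were higher (87.8%, against 22.9% over all genes) and 1, the daughter-cell gene DSE1 at -0.93 ± 0.23, was lower; the median was 1.52, and between 0.74 and 2.01 in the 4 pairs. SIM1 led it, with 1634, 667.1, 2050 and 1572 CPM of footprints, against 122.5, 105.1, 328.0 and 239.8 CPM of polyA RNA. Glycolysis and fermentation followed: 17 of 22 genes were higher and 5 did not pass (median 1.17). CDC19, the main pyruvate kinase, had 30182, 12432, 24075 and 22381 CPM of footprints, against 4963, 4242, 7523 and 5624 CPM of polyA RNA (2.02 ± 0.29, edgeR adjusted p = 0.000256). PGK1, phosphoglycerate kinase, stood at 1.09 ± 0.28, and the minor alcohol dehydrogenase ADH5 lay at -0.21 ± 0.19 and did not pass.

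Other metabolic lists were also high, beside shares over all genes of 22.9% higher and 23.6% lower. The TCA cycle had 9 of 14 genes higher and 1 lower (median 0.85): KGD1, a subunit of the 2-oxoglutarate dehydrogenase complex, stood at 2.04 ± 0.22, and CIT2, the peroxisomal citrate synthase, at -1.04 ± 0.25. Amino acid synthesis had 35 of 62 higher and 4 lower (median 0.72), led by MET6, methionine synthase, with 14561, 3916, 3642 and 4321 CPM of footprints against 1681, 1078, 816.2 and 751.6 CPM of polyA RNA (2.54 ± 0.35, edgeR adjusted p = 0.000198). Respiratory subunits, although glucose represses their genes, had 21 of 40 higher and 1 lower (median 0.51). SDH1, of succinate dehydrogenase, had 38.8, 40.1, 356.4 and 482.4 CPM of footprints, against 10.1, 10.5, 123.9 and 117.9 CPM of polyA RNA (1.86 ± 0.18, edgeR adjusted p = 5.45e-05). BY4741 and EY0690 differed in level, and each strain's footprints exceeded its own polyA RNA. Ergosterol enzymes had 12 of 23 higher and 2 lower (median 0.61).

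Proton pumps had 10 of 20 higher and 10 that did not pass (median 0.57), where 22.9% of all genes were higher and 23.6% lower. PMA1, the proton pump of the plasma membrane, led them with 17831, 8340, 15370 and 16878 CPM of footprints, against 1756, 2715, 4492 and 4506 CPM of polyA RNA (2.20 ± 0.29, edgeR adjusted p = 0.000148). Of hexose transport and sensing genes, 5 of the 10 tested were higher and 1 lower; 5 of the 15 in the table were below the CPM minimum. HXT2, a transporter, stood at 1.47 ± 0.21. Among chaperones 25 of 49 were higher and 3 lower (median 0.65), from SSC1, the Hsp70 of the mitochondrial matrix, at 2.30 ± 0.26 to the stress-induced SSA3 at -1.71 ± 0.40, or -2.41 without the second BY4741 footprint library. HSC82, the constitutive Hsp90, shares 18.3% of its 28-base words and stood at 0.74 ± 0.25, a call that ended with each of 4 of the 8 libraries left out in turn (edgeR adjusted p between 0.0533 and 0.102). ACT1, actin, had 5317, 2385, 4030 and 4527 CPM of footprints, against 1024, 1020, 1313 and 1148 CPM of polyA RNA (1.86 ± 0.25, edgeR adjusted p = 0.000183).

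DNA repair genes were at the other end of the scale. Of 61 DNA repair and recombination genes 1 was higher and 29 were lower (47.5%, against 23.6% over all genes), with a median of -0.59 and between -0.75 and -0.38 in the 4 pairs. RAD28 was the lowest, with 6.7, 12.05, 2.7 and 1.7 CPM of footprints, against 18.3, 22.7, 27.9 and 24.9 CPM of polyA RNA (-1.66 ± 0.41, edgeR adjusted p = 0.00533). Its footprints averaged 5.78 CPM, so it reached the CPM minimum only through polyA RNA, where it was high. How many of the 61 did so was not counted. RAD23, a ubiquitin receptor, was the gene that was higher (1.12 ± 0.26). Meiosis and sporulation genes were mostly too low to test: 9 of the 41 in the table passed the minimum. Of the 9, 6 were lower (66.7%, against 23.6% over all genes). The meiotic RNA-binding protein gene RIM4 was the 1 higher gene (11.1%, against 22.9%). In 4 of the 9 only polyA RNA carried the gene past the minimum, and all 4 were called lower. In 1 only footprints did, and it was called higher. The counts of this list are therefore a description. Cyclins and other cell cycle regulators had 6 of 39 higher (15.4%) and 7 lower (17.9%), both below the shares over all genes, with a median of -0.24. Their range was wide, with WHI5, a G1 inhibitor, at 1.78 ± 0.29 and CLB1, a mitotic cyclin, at -1.28 ± 0.22. The proteasome had 4 of 33 higher and 4 lower (12.1% each, median -0.11), fewer of either than over all genes.

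Of 122 sequence-specific transcription factors 44 were higher (36.1%, against 22.9% over all genes) and 18 lower (14.8%, against 23.6%), with a median of 0.27. IXR1, an HMG-box protein, led them at 2.76 ± 0.27, with 228.5, 102.0, 363.1 and 253.7 CPM of footprints against 20.4, 18.4, 56.7 and 58.6 CPM of polyA RNA. Protein kinases had 30 of 113 higher (26.5%, near the share over all genes) and 14 lower (12.4%), with a median of 0.08. The mRNA decay and granule list had 20 of 42 higher and 3 lower (median 0.45), led by PUF3, which binds mRNAs of mitochondrial proteins, at 2.35 ± 0.31. RNA polymerase subunits had 6 of 31 higher and 6 lower, 19.4% each and near the shares over all genes, from RPO21, the largest subunit of polymerase II, at 2.66 ± 0.32 to RPB4 at -1.08 ± 0.24. Nuclear pore proteins had 14 of 34 higher and 3 lower (median 0.30), with NSP1, of the central channel, highest at 2.06 ± 0.30. Coat and translocon genes, pheromone genes, general stress genes and histones had medians of 0.05, -0.05, 0.16 and -0.06.

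Genes with upstream reading frames known from the literature had 4 of 21 higher (19.0%, against 22.9% over all genes), 7 lower (33.3%, against 23.6%) and 10 that did not pass (median -0.04). GCN4, the activator of amino acid synthesis, had 348.3, 449.5, 393.8 and 166.9 CPM of footprints, against 907.8, 822.6, 803.1 and 793.4 CPM of polyA RNA (-1.31 ± 0.25, edgeR adjusted p = 0.00162). HAC1 is not in that list, and its unspliced mRNA is blocked by its intron. It had 9.0, 234.6, 129.5 and 55.1 CPM of footprints, against 499.6, 340.9, 537.0 and 532.1 CPM of polyA RNA. Its log2 ratio was -2.12 ± 0.61 (edgeR adjusted p = 0.0119), and -3.48 without the second BY4741 footprint library. CPA1 split by strain, at 0.90 and 0.87 in the EY0690 pairs and -0.43 and -0.34 in the BY4741 pairs. It did not pass (0.24 ± 0.26, edgeR adjusted p = 0.47). SCH9, a kinase of nutrient signalling, was the highest of the list of known upstream reading frames, at 1.86 ± 0.25. CBS1, an activator of mitochondrial translation, was its lowest at -1.62 ± 0.45, or -2.37 without the second BY4741 footprint library. Footprints of CBS1 averaged 5.03 CPM, so it reached the CPM minimum only through polyA RNA, where it was high. CLN3, a G1 cyclin, and HAP4, an activator of respiratory genes, passed as higher (1.07 ± 0.33 and 0.73 ± 0.25), calls that ended with 2 and with 6 of the 8 libraries left out in turn. YAP1 (-0.18 ± 0.17), RPN4 (-0.19 ± 0.19), GCN2 (0.26 ± 0.19) and RPL3 (0.52 ± 0.22, edgeR adjusted p = 0.065) did not pass.

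**Figure D2:**
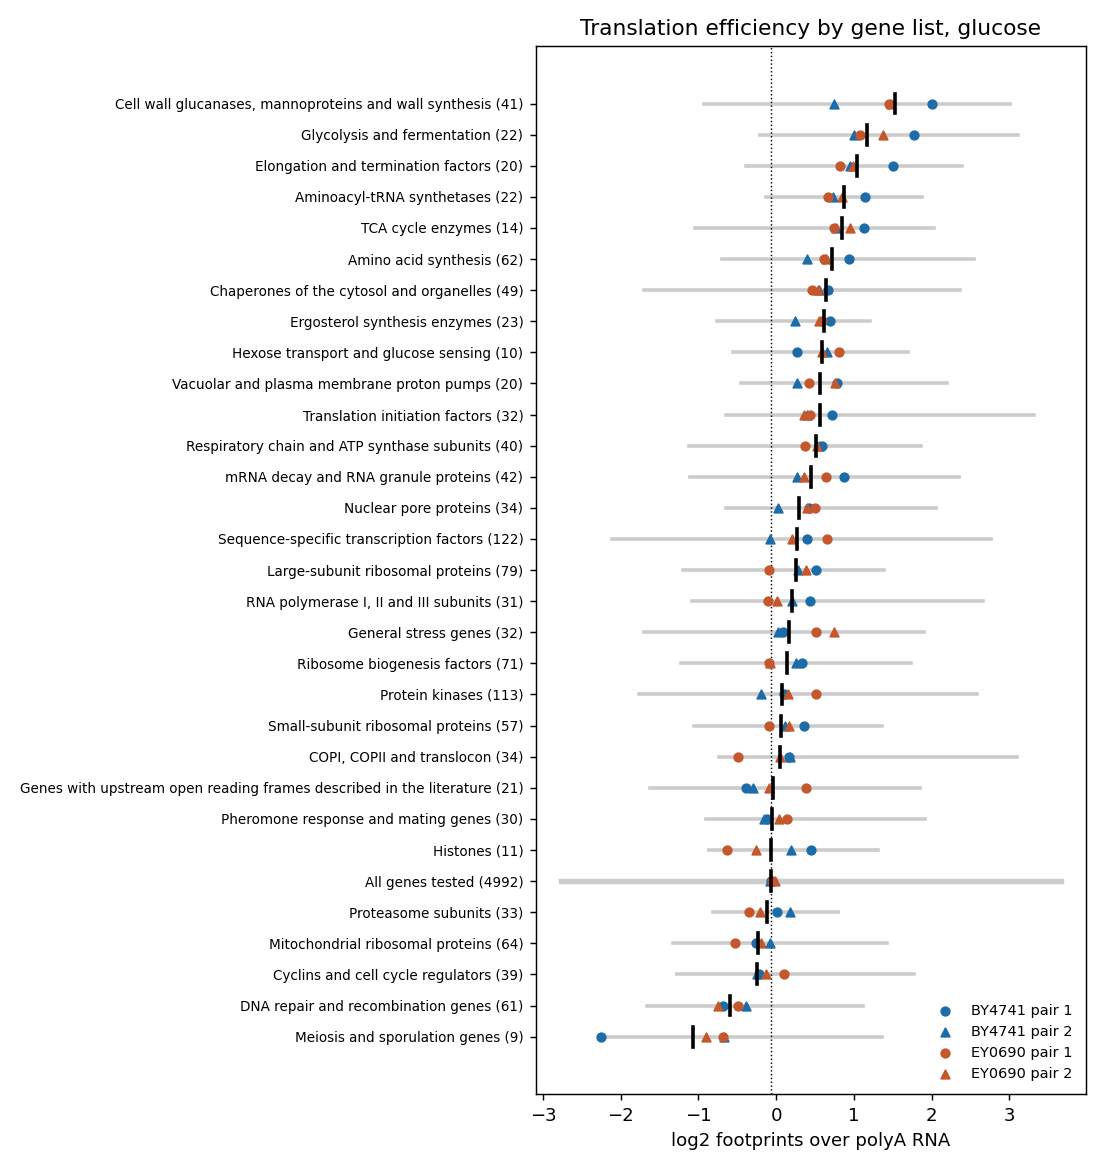
Log2 ratio of footprints to polyA RNA for the 30 gene lists and all genes tested, ordered by median, with the number of genes tested in parentheses. Black bars are medians of the fitted values, and grey lines run from the lowest to the highest gene. Points are the medians in the 4 pairs of libraries, and the dotted line is the median of all genes. The wall list stands highest at 1.52 and the meiosis list lowest at -1.06. In the meiosis list, 4 of the 9 genes reached the CPM minimum only through polyA RNA.

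Genes with an upstream ATG had lower translation efficiency in every pair of libraries. The 871 genes with at least 1 in the 50 bases before the start codon had a median log2 ratio of -0.48, with 9.99% called higher and 40.5% lower. The 4120 with none had a median of 0.01, with 25.7% higher and 20% lower. The median was -0.44 with 1 such ATG (718 genes), -0.65 with 2 (125 genes) and -0.66 with 3 or more (28 genes). In single pairs the difference was smallest in the second BY4741 pair, at -0.36 with and -0.01 without an upstream ATG, and largest in the first, at -0.64 with and 0.04 without one. By kind of frame, the median was -0.42 where a stop closed every such frame before the start codon (390 genes), -0.54 where the frame ran past the start codon out of register (381 genes), -0.38 where it was in register with no stop (35 genes) and -0.71 where a gene had frames of several kinds (65 genes); differences between kinds were not tested. Over unselected RNA, described with the Length results, these medians were -0.17, -0.35, -0.0062 and -0.35. Among genes with at least 10 CPM in footprints and in polyA RNA each, a filter added after seeing the data, the median was -0.44 with an upstream ATG (821 genes) and 0.03 without (4017 genes). Transcript starts were not used, so some of these ATGs lie outside the mRNA.

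The base 3 before the start codon went with smaller differences. The median was -0.02 with A, the base of 61.8% of genes, -0.13 with G, -0.18 with C and -0.21 with T. Genes with A were also shorter, with a median Length of 1223 bases, against 1382 with T and 1481 with C, and the part of Length in these differences was not tested.

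Proline codon runs went the other way. The median log2 ratio was -0.20 in the 2363 genes whose longest run was at most 1 codon, 0.01 with 2, 0.40 with 3, 0.39 with 4 and 1.34 in the 38 genes with 5 or more, of which 29 were called higher and 2 lower. In the 4 pairs that last median was between 0.78 and 1.68. These genes were also long, with a median Length of 2430.5 bases against 1287.5 over all genes, and Length and the run were not told apart. Runs of at least 4 codons for other residues had lower medians than proline (0.95, 89 genes): 0.66 for alanine, 0.62 for threonine, 0.60 for histidine and 0.56 for glutamine, down to 0.03 for leucine (192 genes). Over unselected RNA the proline order did not hold: the median was 0.14 in genes with a run of at most 1 codon, -0.14 with 2, -0.19 with 3, -0.11 with 4 and 0.22 with 5 or more. For runs of at least 4 codons it was then 0.0022 for proline, below valine (0.12), alanine (0.08) and glutamine (0.04).

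**Figure D3:**
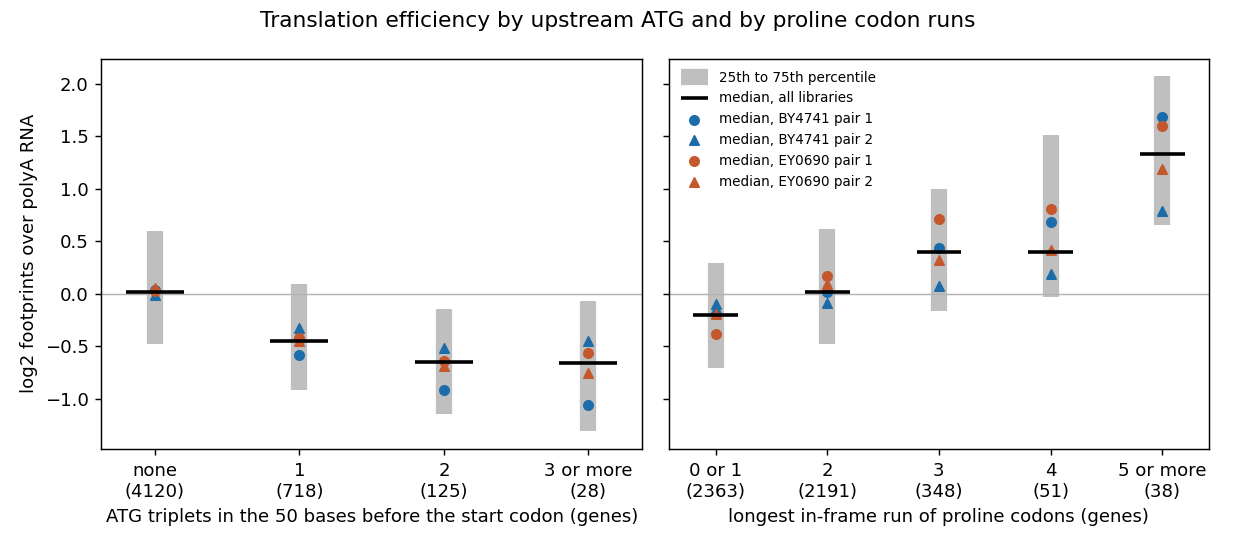
Log2 ratio of footprints to polyA RNA by the number of ATG triplets in the 50 bases before the start codon (left) and by the longest in-frame run of proline codons (right), with the number of genes in parentheses. Grey bars span the 25th to the 75th percentile, black bars are medians and points are the medians in the 4 pairs; medians run down to -0.66 on the left and up to 1.34 on the right.

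Longer genes had more footprints per polyA RNA. In 5 classes of equal size by deposited Length, shortest to longest, the median log2 ratio was -0.14, -0.26, -0.20, -0.01 and 0.33. In the same order 12.9%, 15.1%, 20.04%, 26.8% and 39.8% of genes were called higher, and 23.2%, 30.8%, 30.0%, 24.1% and 9.9% lower. By median and by lower calls the trend did not reach the shortest class. The second BY4741 pair did not share the trend: its medians were 0.01 in the shortest and 0.00 in the longest class, against -0.54 and 0.70 in the first EY0690 pair. Length as deposited is the genomic span of the coding sequence, introns included, for 99.2% of genes.

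Both kinds of library had less signal per base on longer genes, and footprints less steeply. Spearman's rank correlation between Length and level per length was -0.36, -0.44, -0.23 and -0.28 in the footprint libraries, against -0.53, -0.51, -0.56 and -0.50 in the polyA libraries. No footprint library overlapped a polyA library, and the means, -0.33 ± 0.09 and -0.52 ± 0.03 (SD, n = 4 each), differed by 0.195 (exact permutation test over libraries, two-sided, p = 0.0286, the smallest this design allows; adjusted over 4 properties, p = 0.0381). Within strains the footprint values were also above the polyA values, where an exact permutation test of 2 libraries against 2 cannot go below p = 0.333. The differences within the pairs of libraries were 0.172 and 0.068 in BY4741 and 0.328 and 0.211 in EY0690.

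The result turned round with the other measure of mRNA in the series, RNA that was not selected for polyA. The rank correlation with Length was -0.119 in BY4741 total RNA (1 library) and -0.279 in the pooled column of EY0690 total and RiboZero RNA, both above the polyA libraries. The footprint mean minus the mean of these was -0.129, and minus BY4741 total RNA alone -0.280. Over unselected RNA the medians of the 5 Length classes were 0.51, 0.19, 0.02, -0.22 and -0.49. In the BY4741 pairs they were 0.92 and 0.86 in the shortest class and -0.75 and -0.89 in the longest, while the EY0690 medians lay between -0.19 and 0.23 in all 5 classes.

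**Figure D4:**
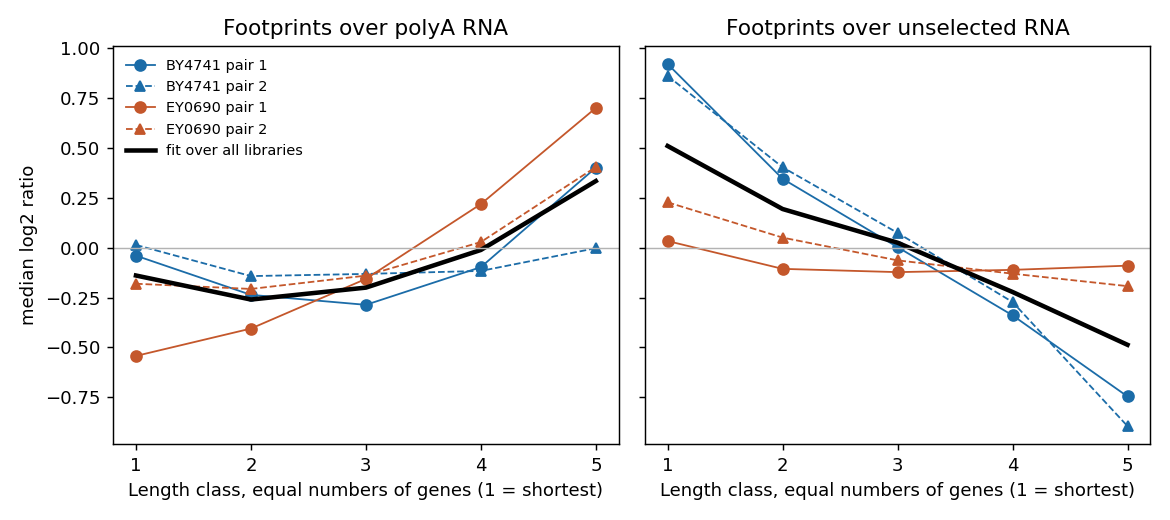
Median log2 ratio of footprints to polyA RNA (left) and to unselected RNA (right) in 5 classes of genes by Length, in the 4 pairs of libraries and in the fit over all of them (black). The fitted medians run up to 0.33 in the longest class on the left and down to -0.49 on the right.

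Codon adaptation, here the likeness of a gene's codons to those of the cytosolic ribosomal protein genes, went with level in every library. The rank correlation was 0.60, 0.58, 0.55 and 0.59 in footprints and 0.47, 0.47, 0.46 and 0.49 in polyA RNA, a difference of 0.108 in means (exact permutation test, two-sided, p = 0.0286, adjusted p = 0.0381). An upstream ATG went with lower levels, at -0.22, -0.18, -0.23 and -0.24 in footprints and -0.10, -0.11, -0.12 and -0.14 in polyA RNA (difference -0.101, the same p and adjusted p). For GC content the strains stood apart, and BY4741 footprints overlapped with EY0690 polyA RNA. The rank correlation was 0.36 and 0.24 in BY4741 footprints and 0.51 and 0.44 in EY0690 footprints. In polyA RNA it was 0.17 and 0.14 in BY4741 and 0.34 and 0.30 in EY0690. The difference of 0.151 between footprints and polyA RNA did not pass (exact permutation test, two-sided, p = 0.114). That test takes no account of strain: within the pairs the difference was 0.198 and 0.094 in BY4741 and 0.171 and 0.140 in EY0690, of 1 sign in all 4, where an exact test over 4 pairs cannot go below p = 0.125. In unselected RNA, the rank correlation with codon adaptation was 0.586 in BY4741 total RNA and 0.580 in the pooled EY0690 column, and with an upstream ATG -0.205 and -0.193. Footprints minus unselected RNA were then -0.0035 for codon adaptation and -0.020 for an upstream ATG. Across genes, the fitted log2 ratio itself still went with both. Its rank correlation with codon adaptation was 0.387 over unselected RNA and 0.379 over polyA RNA, and with an upstream ATG -0.182 and -0.236. With GC content, the rank correlation was 0.340 over unselected RNA and 0.404 over polyA RNA. The median ratio over unselected RNA was -0.28 with an upstream ATG and 0.06 without.

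**Figure D5:**
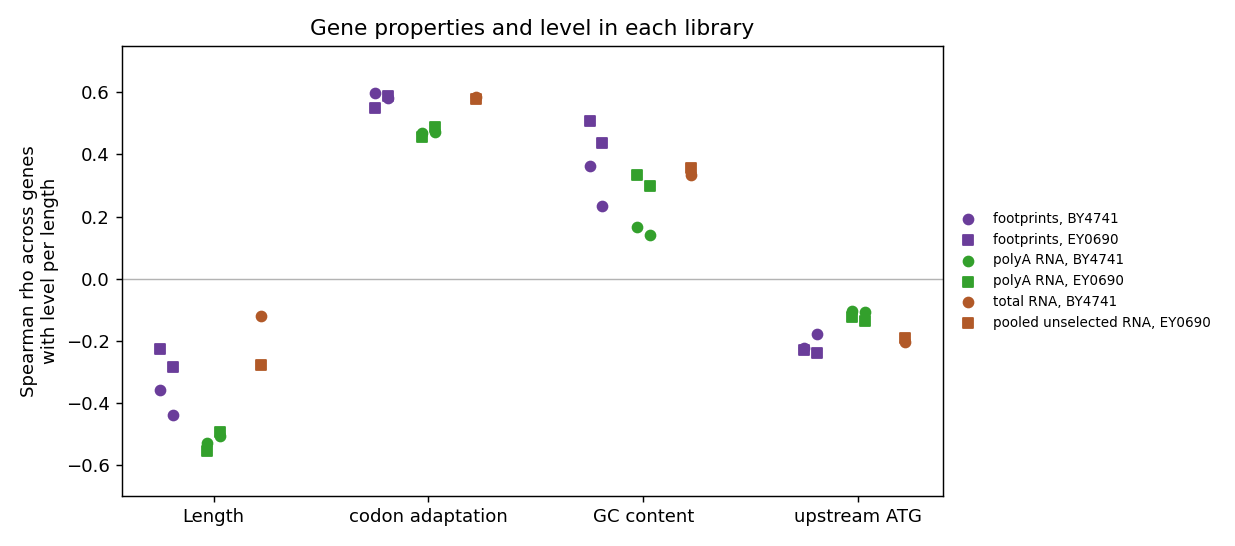
Spearman's rank correlation across genes between 4 gene properties and level per length in each library, with footprints left of polyA RNA and unselected RNA at the right; circles are BY4741 and squares EY0690. Footprints and polyA RNA do not overlap for Length, codon adaptation and upstream ATG, and the unselected values lie above the polyA values for Length.

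The size of the gene values also depended on the mRNA measure. Over unselected RNA the 12 highest genes kept their sign, with a median log2 ratio of 0.89 in place of 3.12, and the 12 lowest kept theirs, with -1.64 in place of -2.26. Against BY4741 total RNA alone, 6 of the 12 highest turned below 0 (LAS17, VRP1, TVS1, PAN1, SEC31 and SEC16) and 3 of the 12 lowest turned above it (PEX35, EMA17 and SPS4). LAS17 illustrates this: scaled with the unselected libraries, it had 111 and 32.96 CPM of footprints in BY4741 and 77.0 CPM of total RNA there, and 308 and 254 CPM of footprints in EY0690 and 18.5 CPM of pooled unselected RNA. The ratios over polyA RNA and over other RNA share footprint libraries, so part of any likeness in sign or rank is built in. Against BY4741 total RNA alone, 46.3% of the 1145 genes called higher were above 0, beside 50.6% of all genes tested. Of the 1178 called lower, 51.5% were below 0 there. Over unselected RNA of both strains, 68.9% of the higher genes were above 0, beside 50.3% of all genes tested, and 74.5% of the lower genes were below it. With 1 library per strain as the RNA side, that fit called no gene higher and 1 lower by edgeR, with 310 and 460 at an unadjusted p under 0.05, and Spearman's rank correlation between the rankings was 0.389. Of the other genes named above that passed, YEF3, RPS12, WHI5, RIM4, SCH9, RPO21, RPB4, CLN3 and HAP4 had the opposite sign over unselected RNA, as did GCN2, CPA1 and THS1, which had not passed.

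Most lists kept their side of the median gene over unselected RNA, though not all. Less the median of all genes, wall genes stood at 0.60 over unselected RNA and 1.59 over polyA RNA, glycolysis at 0.38 and 1.24, elongation factors at 0.28 and 1.11, and DNA repair at -0.55 and -0.52. Large and small ribosomal subunits were further above it, at 0.60 and 0.50 over unselected RNA and 0.32 and 0.13 over polyA RNA. They stood above elongation factors over unselected RNA and below them over polyA RNA. Respiratory subunits, in place of wall genes, were the highest list over unselected RNA, at 0.85, against 0.58 over polyA RNA. Mitochondrial ribosomal proteins changed sides, with 0.36 over unselected RNA and -0.16 over polyA RNA, as did the proteasome, with 0.40 and -0.05. Transcription factors, kinases and nuclear pore proteins changed sides the other way, with -0.21, -0.35 and -0.12 over unselected RNA and 0.34, 0.15 and 0.37 over polyA RNA. So did genes with known upstream reading frames, at -0.27 over unselected RNA and 0.03 over polyA RNA, and pheromone genes, at -0.12 and 0.01.

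The strains differed in the translation efficiency of 1 gene of 4992 (0.02%) by the strain by assay term. YJL047C-A (chromosome X, 349044 to 349178, 1 short coding sequence) had 895.7 and 505.7 CPM of footprints in EY0690 and 7.5 and 12.05 in BY4741, while its polyA RNA was 55.8 and 26.9 CPM in EY0690 and 26.3 and 50.8 in BY4741. The footprints did not overlap between strains and the RNA did. EY0690 minus BY4741 was 5.98 ± 0.62 on the log2 scale (SE, edgeR adjusted p = 0.00214). DESeq2 called 8 genes and the fit with the replicate block 2; without the second BY4741 footprint library 108 genes were called, and without the second EY0690 polyA library none (463 at an unadjusted p under 0.05).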

How the data were processed

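The deposited table holds, per the file headers, read counts in the region downstream of initiation and in an initiation region of each coding sequence, as whole numbers. Reads were aligned with Bowtie 0.12.8 to build R64, per the submitters' processing notes. The sources used here do not give the counting program, the annotation or the region bounds. The downstream counts deposited by the authors for the 8 glucose libraries were used, and 25 columns of per-sample values were not used. For EY0690, total and RiboZero RNA share 1 deposited column of pooled counts, which entered alternatives only.

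With edgeR 4.0.16 (R 4.3.3), counts were scaled by TMM and given a quasi-likelihood F test, strain being a covariate, on 4992 genes with a mean CPM of at least 10, adjusted by Benjamini-Hochberg. Log2 ratios carry the tool's prior count, and SE is the ratio divided by the square root of F. Ratios within a pair of libraries (same strain and replicate number) used a pseudocount of 0.5 CPM. TMM takes most genes as balanced, so values are relative to other genes. The script was tested on simulated counts. Intervals of 0 counts cover counting error only.

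The members and the 30 lists were chosen with earlier results of these data known, and the lists of this report were written for it. Named genes were the 12 highest and 12 lowest past an adjusted p of 0.05 with 1 sign in all 4 pairs, at most 20% of their 28-base words shared and no overlapping coding sequence; the highest and lowest member of each list among genes of that separate sequence, also where it did not pass, some of which are left unnamed in the text; and 16 genes whatever their values, not all of which are reported here. Coordinates and sequences are those of the RefSeq R64 assembly, matched by identifier for 5379 of 5381 genes. Proline runs, classes of upstream frame and unselected RNA of both strains were added after seeing the data. Within each strain, same-numbered footprint and polyA libraries deviated together across genes (correlation 0.230 in BY4741 and 0.136 in EY0690), so replicate numbers were taken as pairs in the fit with a replicate block. DESeq2 1.42.0, other scalings, filters, library subsets and leaving out each library were alternatives.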

Additional observations from a re-analysis of the deposited data

Results flagged for a closer look

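In 7 of 100 named values over the 4 pairs of libraries, 1 pair stood far from the other 3, where chance flags about 1 in 20 such groups. In 6 it was the first BY4741 pair: the log2 ratio of footprints to polyA RNA there was 4.14 for PDC1, 3.73 for SIM1, 1.84 for PGK1, 3.34 for PMA1, -0.53 for YAP1 and 2.82 for SOD2. In the seventh, PUF3, it was the second BY4741 pair, at 1.04. YJL047C-A differed between strains by the test of the strain by assay term, at 5.98 (EY0690 minus BY4741, log2).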

How the results depend on the processing

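The number of genes called higher (1145) and lower (1178) was 472 and 2444 with library size alone, 534 and 363 in the test against a 1.5-fold difference, 168 and 0 in BY4741 alone (edgeR, 992 and 613 at an unadjusted p under 0.05), 691 and 398 with the replicates numbered 2, 41 and 199 with BY4741 total RNA, and 0 and 1 with unselected RNA of both strains (edgeR, 310 and 460 unadjusted). With 1 library left out in turn it ran from 929 to 1305 and from 766 to 1338. The strain difference was called for 1 gene, for 8 by DESeq2, for 2 with the replicate block and for 0 to 108 with 1 library left out. The block called 1139 higher and 1163 lower, with 1116 and 1123 of those of the unblocked fit among them, and ended no call of a named gene. The footprint minus polyA difference of the rank correlation with Length (0.195) ran from 0.162 to 0.232 with a library left out (exact permutation p = 0.0286 without a footprint library and 0.0571 without a polyA library); it was -0.280 against BY4741 total RNA and -0.129 against unselected RNA, where codon adaptation gave -0.0035 and an upstream ATG -0.020. Without a library the differences ran from 0.101 to 0.117 for codon adaptation, -0.114 to -0.0936 for an upstream ATG and 0.110 to 0.201 for GC content. Named genes that passed changed sign against BY4741 total RNA, 1 library, and unselected RNA, and under none of the other alternatives run, while 6 named genes that did not pass also turned under 4 others; the cause was not tested. Against BY4741 total RNA the log2 ratio was -0.16 for LAS17, -0.33 for VRP1, -0.43 for TVS1, -0.33 for PAN1, -0.33 for SEC31, -0.68 for SEC16, 0.063 for PEX35, 0.16 for EMA17, 0.18 for SPS4, -0.044 for TEF4, -0.13 for PMA1, -2.44 for CLN3, -0.56 for HAP4, -1.30 for GCN2, 0.42 for RPL22B, 0.98 for RPS12, -0.96 for MRPL4, 0.10 for MRPL15, 0.24 for UTP9, 0.40 for GCN3, 1.06 for RPN5, -0.40 for SDH1 and 1.13 for COX5B. It was -0.36 for KGD1, 0.94 for ERG26, 0.26 for DSE1, 1.38 for HTA2, -1.21 for WHI5, -0.10 for IXR1, -2.40 for PTK1, -1.04 for RIM4, -0.58 for AGA1, 0.55 for STE14, -0.98 for SCH9, -1.23 for RPO21, 0.66 for RPB4, 0.49 for the lowest coat and translocon gene, -1.20 for PUF3 and 1.71 for LSM6. Against unselected RNA it was -0.996 for CLN3, -0.19 for HAP4, 0.26 for RPS12, -0.032 for YEF3, 0.34 for RPN5, 0.61 for COX5B, 0.42 for ERG26, 0.42 for HTA2, -0.13 for WHI5, -0.61 for PTK1, -0.23 for RIM4, -0.088 for SCH9, -0.11 for RPO21, 0.12 for RPB4 and 0.45 for LSM6. Depth limits the lowest genes: a count of 0 allows up to 5.01 CPM in the second EY0690 footprint library and 0.384 CPM in the second BY4741 one.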
